A study of Homo sapiens with 6 samples.

Results

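The genes described here encode Golgi glycosyltransferases and carbohydrate sulfotransferases, measured in DLD1, a human cell line from a colorectal adenocarcinoma. Membership was set by a rule on names, chosen with earlier results of these data known. A probe set counted if its only gene symbol began with GALNT, MGAT, B3GNT, B4GALT, B3GALT, ST3GAL, ST6GAL, FUT or CHST and a number. This gave 198 probe sets of 79 genes, out of 18132 genes read on the array, and each gene was represented by its probe set with the highest mean over all arrays. Of the 79, 77 were protein-coding enzyme genes and 2 were not, the antisense RNA gene B3GALT5-AS1 and the transcribed pseudogene MGAT4EP. The groups compared were DLD1 cells infected with a lentivirus expressing a short hairpin RNA (shRNA) against CDKL1, a serine/threonine kinase related to the cyclin-dependent kinases, and DLD1 cells infected with a lentivirus expressing a control shRNA. Each group held 3 samples, each hybridised to 1 Affymetrix array, all of the same unmodified line, so that both groups carried a virus and a hairpin. The sources used here do not give the hairpins, the time from infection to harvest or whether cells were selected. In RNA of whole cultures a change in every cell cannot be told apart from a change in the mix of cells. Values are log2 expression values normalised by RMA, so a difference of 1 is a doubling of signal, and levels of different genes cannot be ranked against each other because probes differ in brightness.

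Proteins and lipids that pass through the Golgi are decorated with sugar chains by many enzymes, most of which add a particular sugar, or sulfate, in a particular linkage. GALNT enzymes start mucin-type O-glycans by joining N-acetylgalactosamine to serine or threonine, and MGAT enzymes build the antennae of N-glycans with N-acetylglucosamine. Many B4GALT, B3GNT and B3GALT enzymes lengthen such chains, while others of these families act on glycolipids or the linker of glycosaminoglycans. ST3GAL and ST6GAL enzymes cap chains with sialic acid, FUT enzymes add fucose, and CHST enzymes add sulfate to chains, including those of chondroitin and keratan. In intestinal epithelium these enzymes make the glycans of mucins and cell-surface proteins, and changes in sialylated and fucosylated Lewis antigens are a well-known feature of colorectal cancer.

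The 3 members whose promoters are shown here are those with the largest fall, MGAT2, the largest rise, GALNT3, and the fall that was alike in every probe set of the gene, GALNT7. The sequences are the 250 bases before each gene's annotated start in RefSeq's GRCh38.p14, written 5′ to 3′ on the gene's own strand, and capitals mark matches to the motifs given below. MGAT2 lies on the plus strand at chr14:49620549-49620798, GALNT3 on the minus strand at chr2:165794248-165794497 and GALNT7 on the plus strand at chr4:173168561-173168810.
MGAT2: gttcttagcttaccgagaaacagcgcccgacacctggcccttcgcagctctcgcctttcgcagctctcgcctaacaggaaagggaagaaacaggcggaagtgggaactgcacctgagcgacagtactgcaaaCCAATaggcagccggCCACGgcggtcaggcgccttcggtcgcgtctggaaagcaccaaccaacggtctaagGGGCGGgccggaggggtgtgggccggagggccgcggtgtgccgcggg
GALNT3: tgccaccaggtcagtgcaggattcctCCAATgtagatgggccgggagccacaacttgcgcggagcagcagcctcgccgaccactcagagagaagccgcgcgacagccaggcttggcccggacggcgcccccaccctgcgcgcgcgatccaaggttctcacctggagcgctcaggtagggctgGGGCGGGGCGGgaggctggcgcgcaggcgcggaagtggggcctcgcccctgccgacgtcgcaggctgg
GALNT7: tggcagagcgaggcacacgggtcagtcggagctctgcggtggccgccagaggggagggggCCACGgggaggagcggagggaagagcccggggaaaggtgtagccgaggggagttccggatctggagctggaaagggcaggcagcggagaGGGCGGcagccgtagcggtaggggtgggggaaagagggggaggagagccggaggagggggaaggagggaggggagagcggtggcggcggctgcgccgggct
The motifs searched, on both strands, were TGACG, a half-site of the cyclic AMP response element, CCACG, a half-site of the endoplasmic reticulum stress element, CACGTG, the E-box, CCAAT, and GGGCGG, the GC box. CCACG and CACGTG overlap where they stand together as CCACGTG. MGAT2 held CCAAT, the GC box and CCACG, GALNT3 held CCAAT and overlapping GC boxes, and GALNT7 held CCACG and the GC box. RefSeq's table held a promoter for 63 of the 79 members. CCACG was found in 2 of 5 promoters of members that rose, in 7 of 9 of members that fell and in 17 of 49 (34.7%) of members that did not pass, against 33.5% of all 35116 promoters in the table. The GC box was found in 3 of 5, 9 of 9 and 30 of 49 (61.2%) in the same order, against 42.6% of all promoters. TGACG was found in 1 of 5, 1 of 9 and 11 of 49, against 21.2% of all promoters, CACGTG in 0 of 5, 2 of 9 and 2 of 49, against 6.34%, and CCAAT in 1 of 5, 2 of 9 and 13 of 49, against 32.01%. The median GC content of these windows was 65.2% for members that rose, 72.4% for members that fell and 68.0% for those that did not pass, against 58.0% over all promoters. The part of GC content in the motif shares was not tested. The 35116 promoters outnumber the 18132 genes read on the array, so shares over all promoters are not shares of the measured genes. A match is a stretch of letters and no evidence of binding.

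Before the members, the checks on the arrays. CDKL1 itself read 4.25, 4.20 and 4.08 in CDKL1 shRNA arrays, against 4.51, 4.42 and 4.17 in control shRNA arrays. The groups overlapped, and the change of -0.19 (95% interval from -0.41 to 0.03) did not pass (limma, adjusted p = 0.219). Without control shRNA replicate 3 it was -0.29 and passed (adjusted p = 0.0489). The background range used here is that of the array's background controls with a GC count of 10 to 16, whose means run from 2.97 to 4.92. Background controls of other GC counts were not used for it. The CDKL1 probe set lies within this range, so it does not check the knockdown well. The ACTB control probe sets, whose 3′ minus 5′ difference is a sign of RNA quality, gave 1.52, 1.73 and 1.55 in CDKL1 shRNA arrays, against 1.40, 1.41 and 1.39 in control shRNA arrays. This difference of 0.198 did not overlap between the groups (exact two-sided permutation p = 0.1, the smallest that 3 arrays against 3 allow), and it stands beside every result below. Of 9 epithelial markers, EPCAM, CDH1, KRT8, KRT18, KRT19 and CDX2 lay far above the background range in both groups. CDX2, an intestinal transcription factor, had means of 10.72 in CDKL1 shRNA arrays and 10.67 in control shRNA arrays. VIL1, which encodes the brush border protein villin, fell by 0.57, at means of 5.29 in CDKL1 shRNA arrays and 5.85 in control shRNA arrays (adjusted p = 0.019), LGALS4 was dim and CEACAM5 lay within the background range. The mean over the 9 epithelial genes ran from 10.30 to 10.36 in CDKL1 shRNA arrays and from 10.41 to 10.44 in control shRNA arrays. Mean levels over the marker lists of other cell types ran from 4.74 to 4.91 and 4.77 to 4.88 for 6 fibroblast genes in CDKL1 shRNA and control shRNA arrays, and from 4.68 to 4.74 and 4.61 to 4.66 for 5 leukocyte genes. For 4 endothelial genes they ran from 5.85 to 5.91 and 5.86 to 5.96, and for 5 kidney-line or neural genes from 5.40 to 5.47 and 5.44 to 5.49, in the same order. The part of these markers in the results was not tested. CD163 was the only gene of the marker lists of other cell types that passed, with a log2 change of 0.65. It was dim, at means of 5.21 in CDKL1 shRNA arrays and 4.56 in control shRNA arrays, the latter within the background range. The pan-leukocyte marker PTPRC lay within the background range, at means of 3.49 in CDKL1 shRNA arrays and 3.62 in control shRNA arrays.

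Most of the enzyme genes did not pass, and those that did changed by small amounts. MGAT2, which adds the N-acetylglucosamine that turns a hybrid N-glycan into a complex one, fell by 0.68 on the log2 scale, while MGAT1, the enzyme before it, rose by 0.20. Among the GALNT genes GALNT3 rose by 0.52 and GALNT7 and GALNT10 fell by 0.35 and 0.43. The Lewis fucosyltransferase gene FUT3 rose by 0.38 and the sialyltransferase genes ST3GAL4 and ST3GAL5 fell by 0.23 and 0.28. In all, 18 of the 79 genes (22.8%) had an adjusted p under 0.05 by limma, with adjustment over all 18132 genes by the method of Benjamini and Hochberg, against 16.8% of all genes. Of these, 7 rose (8.86%, against 8.97% of all genes) and 11 fell (13.9%, against 7.79%). These shares are described and not tested, and 61 members did not pass. Only MGAT2 passed with a change of at least 1.5-fold, as did 1.2% of all genes. The median log2 change was -0.011 over the members and -0.014 over all genes, and the median size of change was 0.108 and 0.091. Among called genes the median size was 0.23 for the members, a fold of 1.17, and 0.28 for all genes. CDKL1 shRNA and control shRNA arrays did not overlap for 29 members (36.7%), against 35.7% of all genes, and these included all 18 called members and 11 that did not pass.

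**Figure D1:**
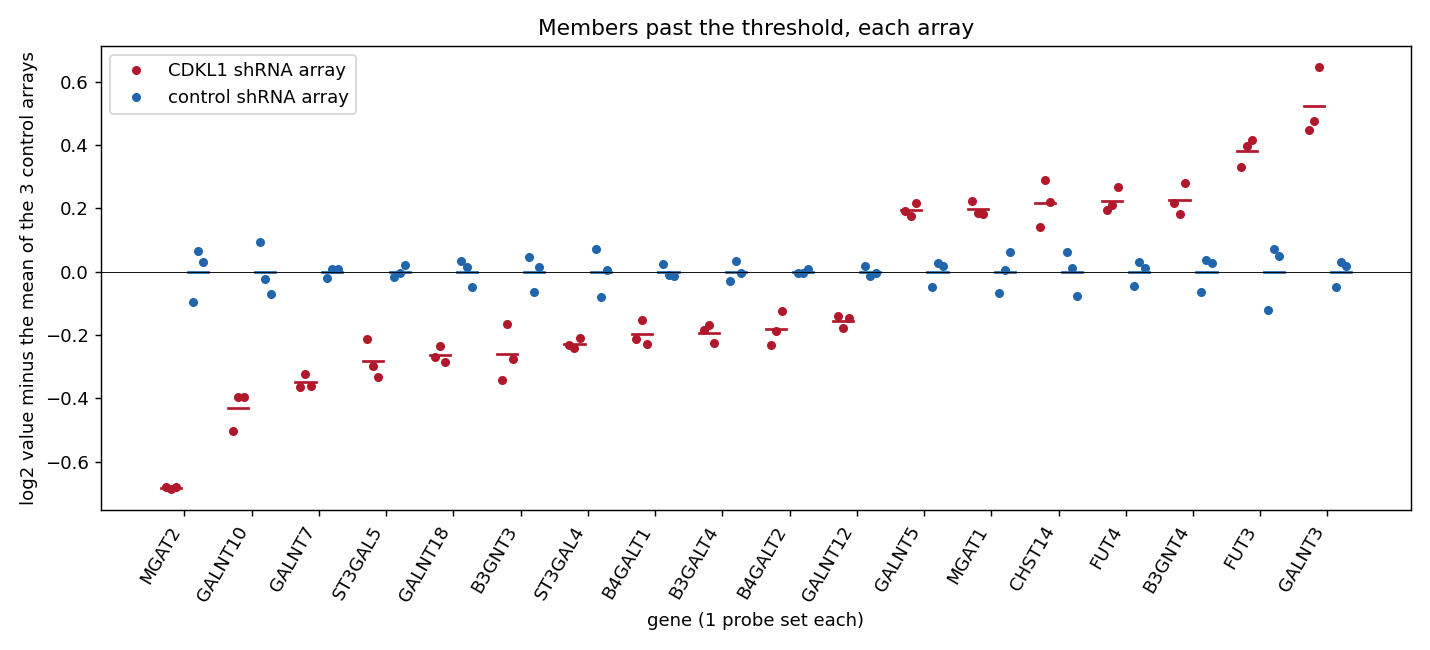
Log2 value of each array minus the mean of the 3 control shRNA arrays, for the 18 members past the threshold, with CDKL1 shRNA arrays to the left of control shRNA arrays for each gene and bars at the group means. No gene's groups overlap, and the changes run from -0.68 for MGAT2 to 0.52 for GALNT3.

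Of the 16 GALNT genes, 2 rose, 4 fell and 10 did not pass. GALNT3, whose product is known for glycosylating the hormone FGF23, read 10.53, 10.56 and 10.73 in CDKL1 shRNA arrays, against 10.03, 10.11 and 10.10 in control shRNA arrays. All 3 CDKL1 shRNA arrays lay above every control array, with replicate 3 the highest, and the rise was 1.44-fold (log2 change 0.52, SE 0.06, limma adjusted p = 0.00215). A further probe set of GALNT3 rose by 0.62, and the dimmest, at a mean level of 5.18, gave -0.07. GALNT5 read 7.21, 7.20 and 7.24 in CDKL1 shRNA arrays, against 6.98, 7.05 and 7.04 in control shRNA arrays. This was a smaller rise, 1.14-fold (log2 change 0.19, SE 0.04, adjusted p = 0.0229), and it lost its call in each of the 6 fits without 1 array, with adjusted p from 0.0508 to 0.0856.

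GALNT7 and GALNT10 belong to the members of the family that act mainly on peptides already carrying N-acetylgalactosamine, and both fell. GALNT7 read 11.45, 11.50 and 11.46 in CDKL1 shRNA arrays, against 11.80, 11.83 and 11.83 in control shRNA arrays. The 3 arrays of each group lay within 0.05 of each other, so the fall, 1.27-fold, was many times the spread (log2 change -0.35, SE 0.04, adjusted p = 0.00192). All 3 probe sets of GALNT7 fell, by 0.35 to 0.36. GALNT10 read 6.46, 6.57 and 6.57 in CDKL1 shRNA arrays, against 7.06, 6.94 and 6.89 in control shRNA arrays, a fall of 1.35-fold (log2 change -0.43, SE 0.06, adjusted p = 0.00371) in its only probe set. GALNT18 read 5.82, 5.86 and 5.81 in CDKL1 shRNA arrays, against 6.13, 6.11 and 6.04 in control shRNA arrays, a log2 change of -0.26 (adjusted p = 0.008), also from 1 probe set. GALNT12, a family member expressed in the digestive tract, read 9.81, 9.77 and 9.80 in CDKL1 shRNA arrays, against 9.96, 9.93 and 9.94 in control shRNA arrays. Its change of -0.15 was the smallest of the called changes (adjusted p = 0.0403), lost its call in all 6 fits without 1 array (adjusted p from 0.0777 to 0.118), and did not pass when both of its probe sets were averaged (adjusted p = 0.107) or after subtraction of each array's median (adjusted p = 0.121).

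The 10 GALNT genes that did not pass had log2 changes from -0.17 to 0.17. GALNT1, a broadly expressed initiating enzyme, read 11.26, 11.31 and 11.40 in CDKL1 shRNA arrays, against 11.33, 11.42 and 11.42 in control shRNA arrays, and the 95% interval of its change ran from -0.19 to 0.06. GALNT16 had the largest change of these, -0.17, with an interval from -0.40 to 0.06. GALNT2, another broadly expressed initiating enzyme, did not overlap between the groups, at 9.60 to 9.63 in CDKL1 shRNA arrays and 9.35 to 9.51 in control shRNA arrays, but missed the threshold (log2 change 0.17, adjusted p = 0.0822). GALNT13, GALNT14 and GALNT15 lay within the range of background controls, where RMA compresses differences.

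Of the 8 MGAT enzyme genes, 1 rose, 1 fell and 6 did not pass. MGAT2 read 9.60, 9.59 and 9.59 in CDKL1 shRNA arrays, against 10.18, 10.34 and 10.30 in control shRNA arrays. The CDKL1 shRNA arrays were almost identical to each other, at 9.59 ± 0.0046, against 10.27 ± 0.085 in control arrays (SD, n = 3 each), and the gap between the groups was several times the spread of the control arrays. The fall was 1.60-fold (log2 change -0.68, SE 0.05, 95% interval from -0.81 to -0.56, adjusted p = 0.000425). Its size differed between the 4 probe sets of MGAT2. They gave -0.68, -0.36, -0.03 and -0.54 from the brightest to the dimmest, 3 of them called over all probe sets, and their mean gave -0.40 (adjusted p = 0.0012). The dimmest, at a mean level of 4.48, lay within the background range. The probe set with the largest fall carries the suffix _s, which marks probes that can bind several transcripts. With each gene read from its brightest probe set without that suffix or _x, no member passed with a change of at least 1.5-fold. A dimmer probe set of GALNT3 without either suffix rose by 0.62. MGAT1, which starts the conversion of oligomannose to hybrid N-glycans, read 9.01, 8.98 and 8.97 in CDKL1 shRNA arrays, against 8.72, 8.79 and 8.85 in control shRNA arrays. Its rise was 0.20 (SE 0.05, adjusted p = 0.0325) in this probe set and 0.38 in the other, and both carry the suffix _s. In fits without 1 array its adjusted p ran from 0.0455 to 0.0925, past the threshold only without control shRNA replicate 3. After a further quantile normalisation it did not pass either (adjusted p = 0.0516).

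The MGAT genes of further antennae did not pass. MGAT4B, a broadly expressed enzyme that adds a branch to the alpha-1,3 arm, read 11.04, 11.08 and 11.06 in CDKL1 shRNA arrays, against 11.15, 11.17 and 11.12 in control shRNA arrays. These groups did not overlap, but the change of -0.08 had an interval from -0.18 to 0.01. MGAT5, the enzyme of beta-1,6 branching that is much studied in metastasis, had 4.18, 4.06 and 4.04 in CDKL1 shRNA arrays, against 4.21, 4.31 and 4.18 in control shRNA arrays, within the background range, so its change of -0.14 carries little information. MGAT3, the bisecting enzyme, had a change of 0.01 with an interval from -0.11 to 0.14. Neither transcript that encodes no enzyme passed, and both lay within the background range, with log2 changes of 0.15 for B3GALT5-AS1 and -0.16 for MGAT4EP.

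**Figure D2:**
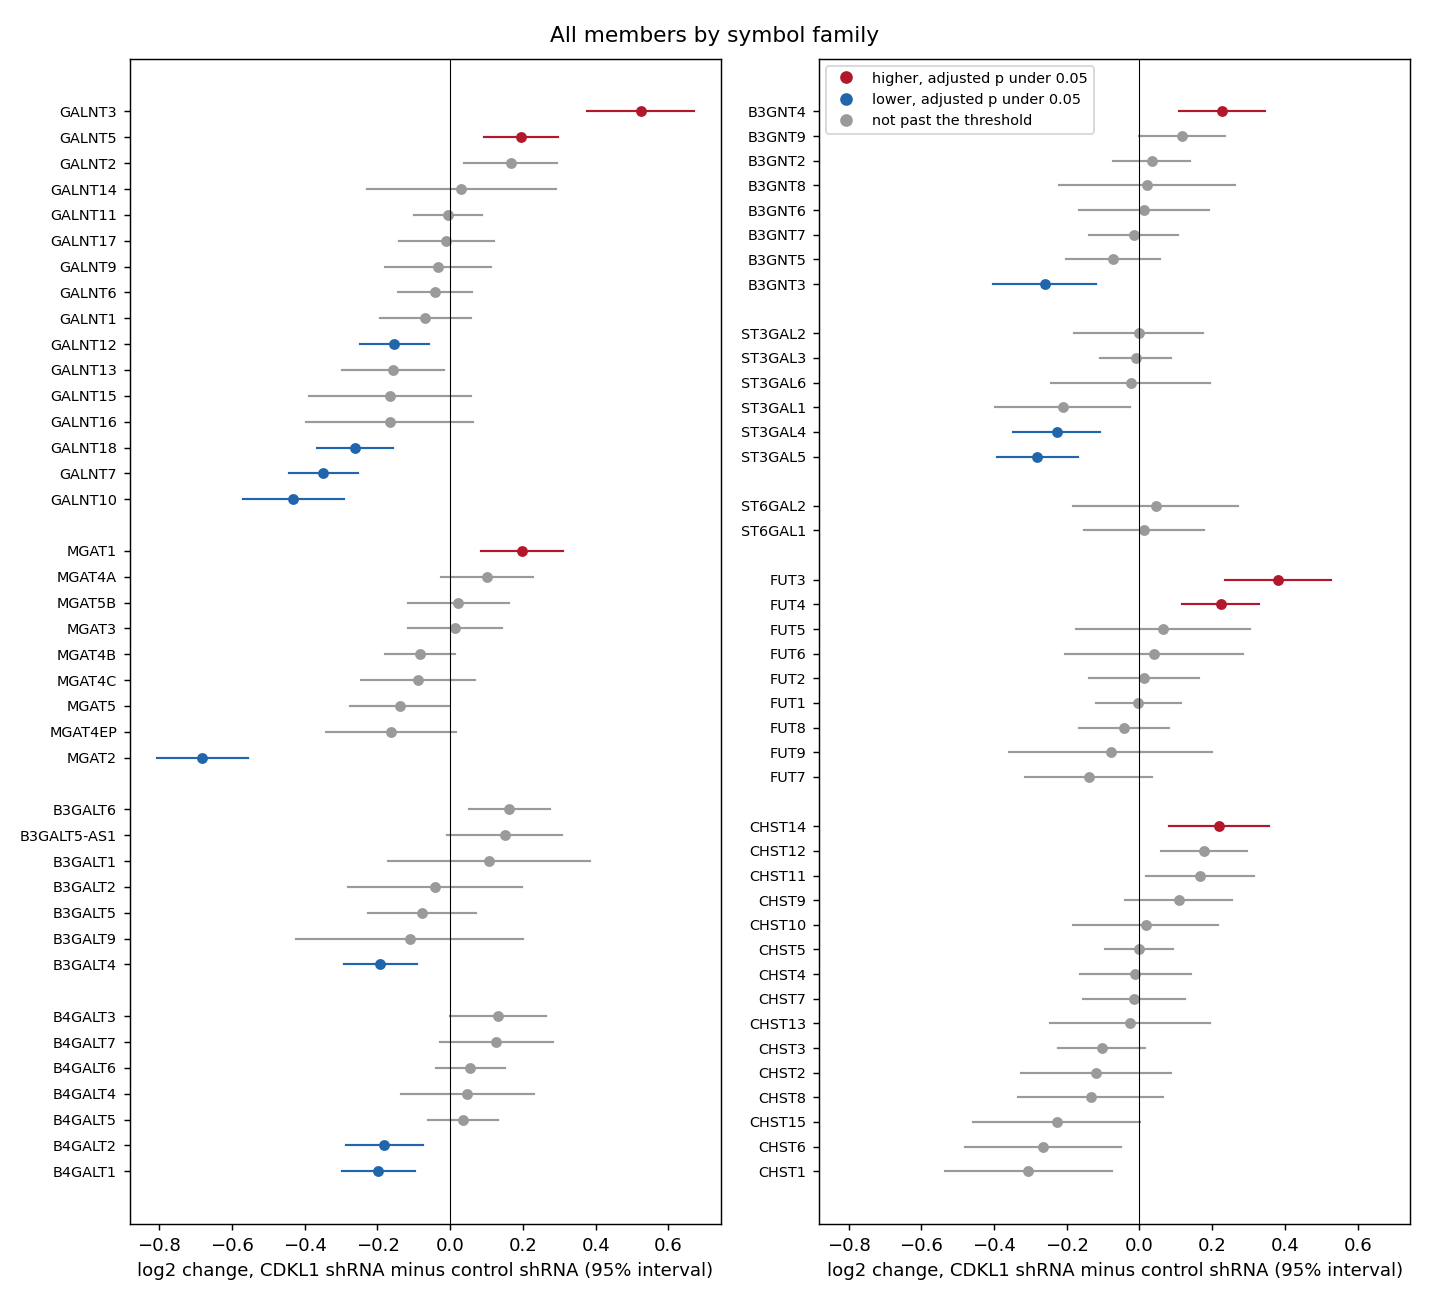
Log2 change between CDKL1 shRNA and control shRNA arrays with its 95% interval for all 79 members, grouped by symbol family and ordered by size within each. Coloured points passed the threshold, 7 higher and 11 lower, and the other 61 did not.

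Among the genes of the B4GALT, B3GNT and B3GALT families, 1 rose and 4 fell, beside the 8.97% of all genes that rose and 7.79% that fell. The direction was not tested. B4GALT1, the main galactosyltransferase of N-acetyllactosamine and the catalytic part of lactose synthase, read 10.31, 10.37 and 10.29 in CDKL1 shRNA arrays, against 10.54, 10.51 and 10.51 in control shRNA arrays. Its relative B4GALT2 read 10.00, 10.05 and 10.11 in CDKL1 shRNA arrays, against 10.23, 10.23 and 10.24 in control shRNA arrays. In both genes every CDKL1 shRNA array lay below every control array, with log2 changes of -0.20 (SE 0.04, adjusted p = 0.0214) and -0.18 (SE 0.05, adjusted p = 0.034). B4GALT1 passed in 1 of 6 fits without an array, the one without CDKL1 shRNA replicate 2, and B4GALT2 in none (adjusted p from 0.0524 to 0.104), nor after subtraction of each array's median (adjusted p = 0.0915). All 4 probe sets of B4GALT2 had a negative change, whereas those of B4GALT1 ran from -0.20 to 0.11 and their mean did not pass (adjusted p = 0.547). The other 5 of 7 B4GALT genes did not pass, with changes from 0.04 to 0.13. B4GALT3 gave the largest of these, 0.13 with an interval from 0.00052 to 0.26, which passed without control shRNA replicate 1 (0.18, adjusted p = 0.0479), and B4GALT5, which makes lactosylceramide, the smallest, 0.04 with an interval from -0.06 to 0.13.

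Of the 8 B3GNT genes, 1 rose, 1 fell and 6 did not pass. B3GNT3, which extends core 1 O-glycans, read 8.15, 8.33 and 8.22 in CDKL1 shRNA arrays, against 8.54, 8.43 and 8.51 in control shRNA arrays, a log2 change of -0.26 (SE 0.06, adjusted p = 0.0257) that was negative in all 3 probe sets, at -0.26 to -0.21. B3GNT4, which lengthens polylactosamine, read 7.27, 7.24 and 7.34 in CDKL1 shRNA arrays, against 6.99, 7.09 and 7.08 in control shRNA arrays, a change of 0.23 (SE 0.05, adjusted p = 0.0223) in its only probe set. These relatives therefore moved in opposite directions. In fits without 1 array B3GNT3 passed only without replicate 2 of either group (adjusted p up to 0.0865), and B3GNT4 only without CDKL1 shRNA replicate 2 (up to 0.0826). B3GNT2, the main polylactosamine synthase, had a change of 0.03 with an interval from -0.07 to 0.14, and B3GNT9 had 0.12, the largest of the 6 that did not pass. Of the 6 B3GALT enzyme genes 1 fell and 5 did not pass. B3GALT4, the ganglioside GM1 synthase, read 5.53, 5.54 and 5.48 in CDKL1 shRNA arrays, against 5.68, 5.74 and 5.70 in control shRNA arrays, a change of -0.19 (adjusted p = 0.0229) that did not pass after subtraction of each array's median (adjusted p = 0.0578) or with an intensity trend and a robust prior (adjusted p = 0.111). It lost its call without any of the CDKL1 shRNA replicates and without control shRNA replicate 2 or 3, with adjusted p of up to 0.0873. B3GALT6, which makes the linker of glycosaminoglycans, read 9.17, 9.22 and 9.25 in CDKL1 shRNA arrays, against 9.05, 9.005 and 9.09 in control shRNA arrays, without overlap, but missed the threshold (log2 change 0.16, adjusted p = 0.0569). With both of its probe sets averaged it passed (0.23, adjusted p = 0.00974).

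Among capping enzymes, the 2 sialyltransferase genes called fell and the 2 fucosyltransferase genes called rose. Of all genes 8.97% rose and 7.79% fell, and the difference between the families was not tested. Of the 6 ST3GAL genes 2 fell and 4 did not pass, and of the 2 ST6GAL genes neither passed. ST3GAL5, the ganglioside GM3 synthase, read 8.09, 8.005 and 7.97 in CDKL1 shRNA arrays, against 8.29, 8.30 and 8.32 in control shRNA arrays. The control arrays lay within 0.04 of each other and the fall was 1.22-fold (log2 change -0.28, SE 0.05, adjusted p = 0.00804), though with its second, dim probe set averaged in it did not pass (adjusted p = 0.0752). ST3GAL4, which sialylates galactose at the ends of N-glycans and Lewis chains, read 7.79, 7.77 and 7.81 in CDKL1 shRNA arrays, against 8.09, 7.94 and 8.02 in control shRNA arrays. Its fall of 0.23 (SE 0.05, adjusted p = 0.0235) was negative in all 3 probe sets, at -0.23 to -0.06, and it passed in 1 of 6 fits without an array, the one without control shRNA replicate 2. ST3GAL1, the main sialyltransferase of core 1 O-glycans, read 6.49, 6.45 and 6.31 in CDKL1 shRNA arrays, against 6.77, 6.59 and 6.53 in control shRNA arrays. The groups did not overlap, but the change of -0.21 did not pass (adjusted p = 0.118). ST3GAL2 had a change of -0.0023 with an interval from -0.18 to 0.18. ST6GAL1, which makes alpha-2,6-sialylated N-glycans and is often raised in colon cancer, read 4.98, 5.00 and 4.82 in CDKL1 shRNA arrays, against 4.91, 4.84 and 5.02 in control shRNA arrays, around the top of the background range, and ST6GAL2 lay within it at a mean of 3.24.

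Of the 9 FUT genes, 2 rose and 7 did not pass. FUT3, the Lewis enzyme, which adds fucose in alpha-1,3 and alpha-1,4 linkage, read 8.43, 8.50 and 8.52 in CDKL1 shRNA arrays, against 7.98, 8.17 and 8.15 in control shRNA arrays. Control shRNA replicate 1 was the lowest, and every CDKL1 shRNA array lay above every control array, a rise of 1.30-fold (log2 change 0.38, SE 0.06, adjusted p = 0.00704). All 3 probe sets of FUT3 had a positive change, at 0.17 to 0.38. FUT3, FUT5 and FUT6 are close relatives in sequence. The chosen probe set of each carries the suffix _x, so its signal may include the others. A FUT3 probe set without _s or _x, at a mean level of 8.02, rose by 0.30 (limma, p adjusted over all probe sets 0.00823). FUT5 and FUT6 gave 0.06 and 0.04, with intervals from -0.18 to 0.30 and from -0.20 to 0.29. FUT4, which makes Lewis x, read 9.18, 9.20 and 9.26 in CDKL1 shRNA arrays, against 8.94, 9.02 and 9.001 in control shRNA arrays, a rise of 1.17-fold (log2 change 0.22, SE 0.05, adjusted p = 0.0161). It did not pass without CDKL1 shRNA replicate 3 or without control shRNA replicate 3, with adjusted p of up to 0.065. FUT8, the core fucosyltransferase of N-glycans, read 8.95, 8.95 and 9.03 in CDKL1 shRNA arrays, against 8.98, 9.10 and 8.98 in control shRNA arrays, with overlap and an interval from -0.17 to 0.08. FUT1 and FUT2, the H antigen enzymes, gave -0.0034 and 0.01, and FUT7, which makes sialyl Lewis x in leukocytes, -0.14 at a mean level of 5.16.

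Of the 15 sulfotransferase genes, 1 rose, 0 fell and 14 did not pass. CHST14, which sulfates dermatan chains, read 8.56, 8.71 and 8.64 in CDKL1 shRNA arrays, against 8.48, 8.43 and 8.34 in control shRNA arrays, a change of 0.22 (SE 0.06, adjusted p = 0.0435). It lost its call in 5 of 6 fits without an array, with adjusted p from 0.0497 to 0.131, and passed only without CDKL1 shRNA replicate 1. It also failed in the table without _s and _x probe sets (adjusted p = 0.0529). CHST12, a chondroitin 4-O-sulfotransferase, read 7.72, 7.78 and 7.67 in CDKL1 shRNA arrays, against 7.49, 7.60 and 7.55 in control shRNA arrays, without overlap, and narrowly missed the threshold (log2 change 0.18, adjusted p = 0.0541), which it passed after subtraction of each array's median (0.20, adjusted p = 0.0421). CHST1, a keratan sulfotransferase, gave the largest change of the members that did not pass, -0.31, at 5.84, 5.91 and 5.71 in CDKL1 shRNA arrays and 6.19, 6.27 and 5.92 in control shRNA arrays (adjusted p = 0.0782). It passed without control shRNA replicate 3 (-0.41, adjusted p = 0.0201), and its other probe sets had the opposite sign. Of these 15 genes 6 lay within the background range, as did 17 of all 79 members and none of the 18 that were called.

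**Figure D3:**
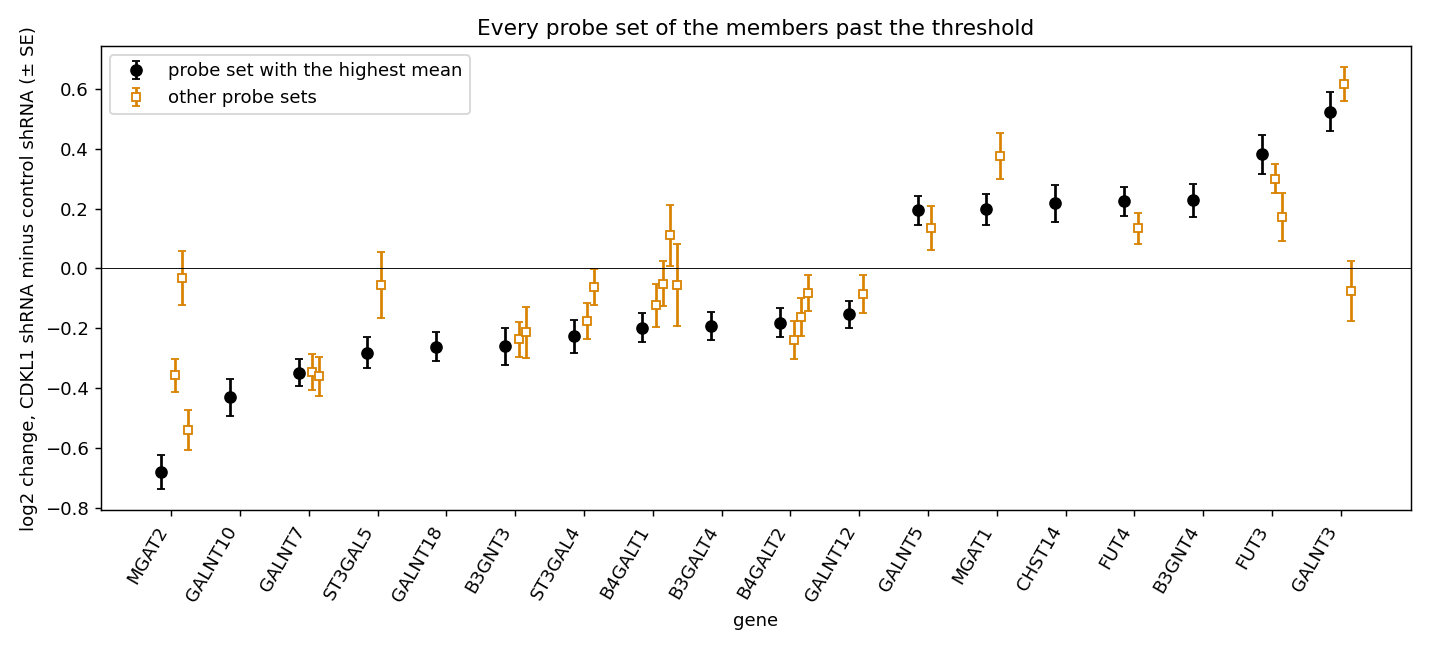
Log2 change of every probe set of the 18 called members, with its SE from a fit over all probe sets. Filled points are the probe set with the highest mean, which stands for the gene, and open squares are the others. The probe sets of GALNT7 lie together at -0.36 to -0.35, while those of MGAT2 spread from -0.68 to -0.03.

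Of the 18 called members, 13 had several probe sets, and in 11 of these every probe set had the same sign. GALNT3 and B4GALT1 were the exceptions. The chosen probe sets of 5 called members, MGAT1, MGAT2, B4GALT1, FUT3 and FUT4, carry the suffix _s or _x. When each probe set was tested on its own, with p adjusted over all probe sets, a setting chosen after the data were seen, 21 members had a called probe set (20.1% of all genes did). In this test CHST14 and GALNT12 had none, and 5 members that did not pass by their brightest probe set had 1. These were B3GALT6 (0.30), B3GNT7 (0.43), B4GALT5 (0.32), CHST13 (-0.26) and GALNT1 (-0.26), and the probe sets of B3GNT7, B4GALT5 and GALNT1 concerned had mean levels of 4.22, 4.60 and 3.65, within the background range.

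Of the called members, 7 kept their call in all 6 fits without 1 array: MGAT2, GALNT7, GALNT3, GALNT10, FUT3, GALNT18 and ST3GAL5. The other 11 lost it in 2 or more of these smaller fits, in which 9.01% to 13.2% of all genes passed. Without CDKL1 shRNA replicate 3, 2 members rose and 5 fell, the lowest counts, and without CDKL1 shRNA replicate 2, 4 rose and 8 fell. Over the genes above the median level, 8 of 35 members rose and 8 fell, where 44.0% of those genes passed, and with an intensity trend and a robust prior 10 rose and 11 fell, where 23.2% of all genes did. When each array's ACTB difference was added to the model, only MGAT2 passed (log2 change -0.68, SE 0.10, adjusted p = 0.0426), where 1.21% of all genes did. All 18 changes kept their sign in that fit, with a median ratio of 1.10 to the plain change. Their median SE was 0.048 without the covariate and 0.092 with it, where 13 of the 18 had an unadjusted p under 0.05. The ACTB difference did not overlap between the groups, and within them varied mostly among CDKL1 shRNA arrays (SD 0.115, against 0.013 in control arrays). The fit therefore cannot tell group and RNA quality apart. GALNT3 gave 0.57 (SE 0.12, adjusted p = 0.0828) and GALNT7 -0.39 (SE 0.08, adjusted p = 0.0765) in that fit. CHST14, at 0.09 (SE 0.10, adjusted p = 0.632), and B3GNT3, at -0.40 (SE 0.09, adjusted p = 0.104), were the called members whose change differed by over 1.5-fold from the plain fit.

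The other genes of Golgi glycosylation were read from 8 lists that name no member. These lists were drawn up with earlier results of these data known. Suppliers of the enzymes and the machinery that keeps them in the Golgi were called mostly as rises, and the direction was not tested. UAP1, which makes UDP-N-acetylglucosamine, the donor used by the MGAT and B3GNT enzymes, read 9.90, 9.98 and 10.00 in CDKL1 shRNA arrays, against 9.17, 9.25 and 9.23 in control shRNA arrays. The groups lay far apart, and the rise was 1.68-fold (log2 change 0.75, SE 0.05, adjusted p = 0.000237). In the donor synthesis list 7 of 24 measured genes rose and 2 fell, with a median log2 change of 0.05, against 8.97% higher and 7.79% lower among all genes. Besides UAP1 they included GMPPA (0.26), GALK2, a kinase of N-acetylgalactosamine (0.22), and UXS1, which makes UDP-xylose (0.29). FPGT, of fucose salvage, fell by 0.43 and GMDS, which starts GDP-fucose synthesis, by 0.24. With 1 array left out 2 to 5 of the list's genes rose and 1 or 2 fell, in fits where 9.01% to 13.2% of all genes passed.

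Among nucleotide sugar and sulfate donor transporters 6 of 14 measured genes rose and 1 fell, with a median of 0.12. Of all genes 8.97% rose and 7.79% fell. SLC35A2, the UDP-galactose transporter, read 9.64, 9.76 and 9.72 in CDKL1 shRNA arrays, against 9.09, 9.24 and 9.08 in control shRNA arrays, a rise of 1.48-fold (log2 change 0.57, SE 0.06, adjusted p = 0.00132). SLC35B2, which carries the sulfate donor PAPS, rose by 0.39, SLC35D2 by 0.41 and SLC35A5 by 0.38, while SLC35B4 fell by 0.26. In the list of enzyme retention and ion balance 8 of 14 rose and 1 fell, with a median of 0.27, beside the same shares of all genes. The conserved oligomeric Golgi complex, COG, tethers the vesicles that bring enzymes back to their cisterna. Its subunit gene COG3 read 7.85, 7.86 and 7.93 in CDKL1 shRNA arrays, against 7.24, 7.26 and 7.33 in control shRNA arrays (log2 change 0.61, SE 0.05, adjusted p = 0.000425). COG6 rose by 0.55, the zinc transporter gene SLC39A9 by 0.45 and GOLPH3L, a relative of the retention adaptor GOLPH3, by 0.42, whereas COG7 fell by 0.16, a call lost in every fit without 1 array. With 1 array left out 5 or 6 of the transporter genes and 8 or 9 of the retention genes rose. In those fits 9.01% to 13.2% of all genes passed in either direction. With the ACTB covariate 0 transporter genes, 3 retention genes and 1 donor synthesis gene passed, all higher, where 1.21% of all genes passed in either direction. The list medians were then 0.14, 0.24 and 0.02, in the same order.

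**Figure D4:**
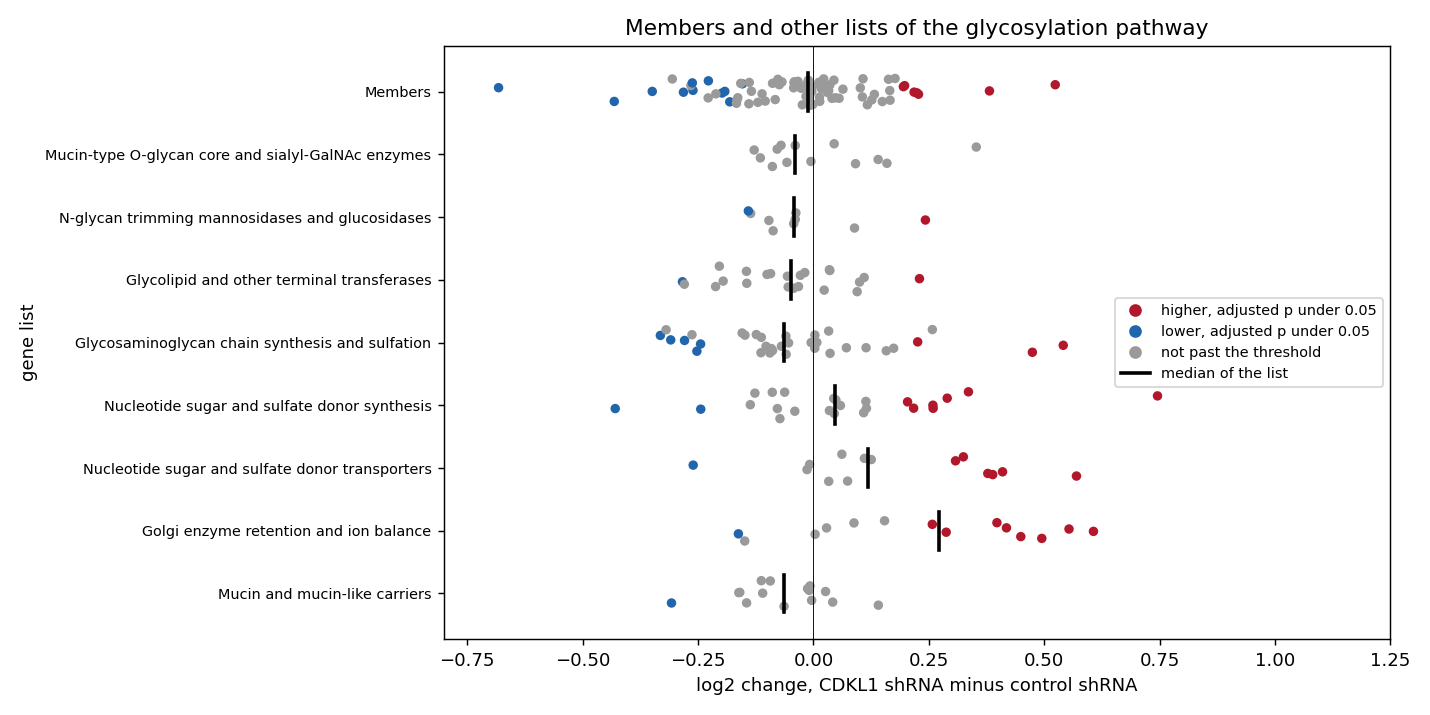
Log2 change between CDKL1 shRNA and control shRNA arrays for the 79 members and the measured genes of 8 other lists of the glycosylation pathway, 1 point per gene, with the median of each list as a bar. The medians run from -0.06 for the glycosaminoglycan and mucin lists to 0.27 for enzyme retention and ion balance, and that of the members is -0.011.

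The remaining lists had few calls or calls in both directions, beside 8.97% of all genes higher and 7.79% lower, and the direction was not tested. In the glycosaminoglycan list 3 of 34 genes rose, a share near that of all genes, and 5 fell. The 3 were chondroitin genes, CSGALNACT2 (0.54, SE 0.08, adjusted p = 0.00432), CHPF2 (0.47) and CHPF (0.23). Among the falls were HS2ST1 (-0.31) and GLCE (-0.33), which modify heparan sulfate, EXTL3 (-0.28), which starts heparan chains, and XYLT2 (-0.24), which adds the first sugar of the linker. With 1 array left out 2 to 4 genes of this list rose and 1 to 4 fell, in fits where 9.01% to 13.2% of all genes passed. Of 22 glycolipid and other terminal transferases, B3GALNT1, the globoside synthase, rose by 0.23 and UGCG fell by 0.28. UGCG makes glucosylceramide, the precursor of the lipids that ST3GAL5 and B3GALT4 act on. With 1 array left out, the call of B3GALNT1 was kept without CDKL1 shRNA replicate 1 or control shRNA replicate 3 and lost in the other fits, and that of UGCG was lost without CDKL1 shRNA replicate 3, control shRNA replicate 2 or control shRNA replicate 3. Of 9 genes that trim N-glycans, MOGS, the first glucosidase, rose by 0.24 and MAN2A2, a mannosidase that acts between MGAT1 and MGAT2, fell by 0.14 (adjusted p = 0.0498), a call lost in every fit without 1 array. The call of MOGS was lost without replicate 2 or 3 of either group, with adjusted p of up to 0.0645, and in the table without _s and _x probe sets (adjusted p = 0.252). None of the 13 genes of O-glycan cores and of sialyl-N-acetylgalactosamine passed, with a median of -0.04. Of 15 measured mucin and mucin-like carriers 0 rose and 1 fell, PODXL, which encodes podocalyxin (-0.31, SE 0.04, adjusted p = 0.00326). With the ACTB covariate none of the genes of these 5 lists passed, PODXL included (-0.30, adjusted p = 0.134), where 1.21% of all genes did. The medians were then -0.21 for the mucin list, against -0.06 in the plain fit, and -0.17 for the glycolipid list, against -0.05, while those of the glycosaminoglycan, N-glycan trimming and O-glycan core lists were -0.066, -0.013 and -0.0074.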

How the data were processed

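The authors' deposited values are log2 expression levels of 49395 probe sets on 6 arrays. RMA is named in the submitters' processing notes. It corrects background within an array, normalises quantiles between arrays and gives 1 log2 value per probe set; its version and settings are not stated in those notes. The method shrinks differences of dim probe sets, and scanner files and detection calls were not analysed here.

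Gene names came from the array's annotation, which gives 1 symbol for 44988 probe sets, several for 1832 and none for 2473. Each of 18132 genes was read from its single-symbol probe set with the highest mean over the 6 arrays, with no filter on dim genes. GALNT4 and GALNT8 are annotated only together with another gene in 5 probe sets, so they are not members. The arrays' number limits the precision. All genes were fitted together, by group alone, with limma 3.58.1 in R 4.3.3 (two-sided), with Benjamini-Hochberg adjustment and a threshold of 0.05. The design text calls the samples independent without saying whether they came from separate infections, so p-values cover only the spread among these cultures or extracts. The fit was tested on data simulated over 18132 genes, with noise independent between genes and 50 genes changed at each of 1.25, 1.5, 2 and 3-fold. It recovered 50% of genes changed 1.25-fold and 98% of those changed 1.5-fold. Far fewer genes were changed there than the 3040 called in the data, so adjustment was stricter. These shares are therefore not the recovery on the arrays. Tables were handled in Python 3.11.15 (pandas 2.3.3) and plotted with matplotlib 3.10.9.

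The members, gene lists and tests were chosen with earlier results of these data known. Named genes are all called members; of those not called, the brightest and the most changed enzyme of each family; and up to 4 called genes per direction of each other list. GALNT2, GALNT13 to GALNT15, MGAT3, FUT1, FUT2, FUT5 and FUT6 were added after their values were seen. Promoter windows came from RefSeq's GRCh38.p14 table, and no build is stated for the array. Alternatives were a replicate block, leaving out each array, 2 further normalisations, other choices of probe set, a filter on dim genes, another prior and an RNA-quality covariate.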

Additional observations from a re-analysis of the deposited data

How the results depend on the processing

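The counts depended on the fit. Against 7 members higher and 11 lower in the plain fit, fits without 1 array gave 2 to 4 higher and 5 to 8 lower, and 1633 to 2399 genes in all against 3040. With the ACTB covariate 0 were higher and 1 lower, of 219 genes called in all. Probe sets without the suffix _s or _x gave 4 higher and 9 lower of 75 members, where 14.2% of all genes passed. MGAT1 and FUT4 have only _s probe sets and were not read in this setting. Of the 16 called members that were, 13 kept their call. Called changes of at least 1.5-fold were found for 0 members with the brightest probe set without _s or _x, and for 0 with the mean of all probe sets. The ACTB difference ran from 0.132 to 0.239 without 1 array. Same-numbered arrays of the groups did not deviate together, with correlations of -0.029, -0.121 and 0.070, so the numbers were not taken as pairs. With a replicate block 3 members were higher and 6 lower, of 1803 genes called. The median of all genes was -0.014 in the plain fit, 0.013 after subtraction of array medians and -0.013 after a further quantile normalisation. After subtraction of array medians 8 members were higher and 8 lower (15.9% of all genes passed), a share of rises of 50%, against 38.9% in the plain fit; over all called genes these shares were 63.9% and 53.5%. Averaging all probe sets of a gene gave 10 and 8, or 55.6%, beside 55.1% over all called genes (16.3% passed). No called member turned its sign in any setting. Of the 61 members that did not pass, 8 to 11 turned without 1 array, 17 with all probe sets averaged, 16 with the ACTB covariate, 11 after subtraction of array medians, 6 after a further quantile normalisation and 5 of 59 without _s and _x probe sets, with plain changes of up to 0.17 in size. Among those picked for brightness or size, with the ACTB covariate B4GALT5 gave -0.0040, ST6GAL1 -0.051 and ST6GAL2 -0.20; B4GALT5 gave -0.076 without _s and _x probe sets; FUT8 gave 0.028 with the mean of its probe sets; and ST3GAL2 gave 0.024 after subtraction of array medians and 0.0011 after a further quantile normalisation. Without 1 array ST3GAL2 ran from -0.042 to 0.072, ST6GAL1 from -0.029 to 0.071 and ST6GAL2 from -0.039 to 0.13. The cause of these shifts was not tested.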
